A study of Mus musculus with 6 samples.

Results

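The effect of adding iron and a heme precursor to a high-fat diet was examined in gastrocnemius muscle by setting 2 pools from mice fed HF+SFC+ALA against 2 pools from mice fed HF, matched by fasting time. These are 4 of the 6 pools of the series, and the other 2 came from mice on the Control diet. All mice were male C57BL/6J, started their diet at 6 weeks of age and ate it for 15 weeks, whereas another label gives their age as 21 months. The HF diet held 60 kcal% fat and the Control diet 10 kcal% fat. Supplemented mice (HF+SFC+ALA) ate the HF diet with 0.023% by weight of sodium ferrous citrate (SFC), an iron salt, and 0.2% of 5-aminolevulinic acid phosphate (ALA). Iron and ALA were always given together, so the effect of one cannot be told apart from that of the other. Muscle was taken after 4 h or after 24 h of fasting. Each combination of diet and fasting time was 1 array of RNA pooled within the group, and the sources used here do not say how many animals a pool held. A difference within 1 fasting time therefore compares 1 pool with 1 pool, and the second fasting time is the only repeat of it.

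5-Aminolevulinic acid is the first committed intermediate of heme synthesis. Cells normally make it in the mitochondrion with ALA synthase, and later enzymes turn it into protoporphyrin, into which ferrochelatase inserts ferrous iron. Heme then serves in myoglobin, in the cytochromes of the respiratory chain and in catalase, and heme oxygenase breaks it down. Given ALA bypasses the synthase step, at which heme synthesis is mainly controlled. Skeletal muscle relies on heme proteins to burn fat, and muscle of animals on a fatty diet can also hold fat cells between its fibres.

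The arrays were alike in scale, with median signals of 63.0 to 69.5 and 68.9% to 71.6% of probe sets above the floor of 26.4 that was set for low signals. The 3' to 5' ratio of the actin control, which goes up as RNA breaks down, was 1.52 in the HF pool at 4 h and 1.08 to 1.22 in the other pools. The same ratio of the Gapdh control was 0.83 in that pool and 0.81 to 0.86 in the other pools, so the 2 controls differed. The part of RNA quality in the results was not tested. The label as muscle fitted the markers, and none of 10 muscle fibre markers was at the floor. Their summed signal was lowest in the HF pool of 4 h (381251) and highest in the HF pool of 24 h (435073). The T cell genes Cd3e and Cd4 and the red cell gene Epb42 were at the floor in every pool, but other genes of these cells were above it. Of 7 lymphocyte markers measured, 2 to 4 were at the floor in each pool, and of 6 red cell markers 2 or 3.

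After supplementation, muscle of mice on the high-fat diet had lower signal for Hp, Lep, Adipoq, Rbp4 and Cidec, which fat tissue expresses strongly. It had higher signal for Igf1, which encodes a growth factor, and for Acot2, a mitochondrial acyl-CoA thioesterase. None of these differences passed the test. With limma on all 6 pools, 0 of 11526 genes reached an adjusted p of 0.05 (0% called), and 585 (5.08%) had an unadjusted p under 0.05. The lowest adjusted p was 0.0562, shared by Adipoq, Ifi27l2a, Hp, Tuba1a, Igf1 and Cidec. Tagln, Acot2, Cdo1, Wdr48, Lep and Tmem45b brought the number of genes with an adjusted p under 0.1 to 12. All 12 differed in the same direction at both fasting times, but the fit favours such genes because disagreement between the times counts as its error. Each diet and fasting time had 1 pool, so the spread behind the p-values is how far diet differences disagreed between 4 h and 24 h. Technical spread, differences between animals and real differences between the times cannot be told apart in it. A fit to the 4 high-fat pools alone called 114 of 11546 genes (0.987%), 43 higher (0.372%) and 71 lower (0.615%). That fit has 1 residual degree of freedom and gives each gene the spread of genes of like signal in place of its own, so its calls do not rest on how closely a gene's 2 pairs of pools match.

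Few genes differed in the same way at both fasting times. In single pairs of pools, 373 genes (3.24%) were at least 1.5-fold higher and 468 (4.06%) lower at 4 h, and 392 (3.4%) higher and 514 (4.46%) lower at 24 h. At both times 114 genes (0.989%) were, 41 of them higher (0.356%) and 73 lower (0.633%), beside 90 genes (0.781%) that differed as much but in opposite ways. Most were dim: the 25% of genes with the lowest signal held 37 of the 41, 56 of the 73 and 79 of the 90. After centring each array on its median the split was 63 higher and 54 lower, so the excess of lower genes depended on how the arrays were scaled. With any size of difference counted, 50.7% of genes had the same sign at both times and 49.3% did not. Across genes, which are not independent replicates, the 4 h and 24 h differences had a Pearson r of 0.05 and a Spearman rho of 0.03. Muscle transcripts at large therefore had no shared direction between the fasting times. Whether the 114 genes form a real shared set was not tested.

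**Figure D1:**
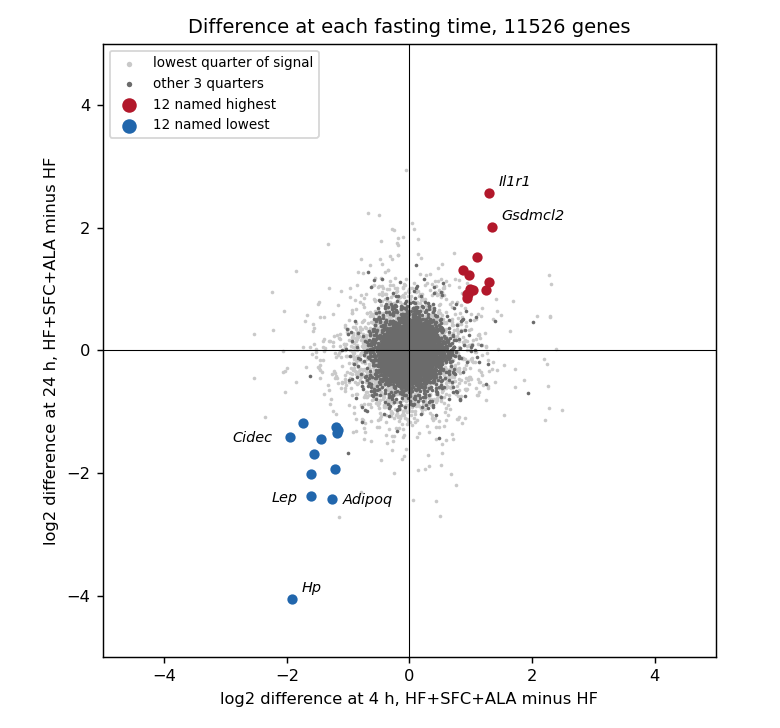
Each point is 1 of 11526 genes, with the log2 difference in signal (HF+SFC+ALA minus HF) at 4 h of fasting on the x axis and at 24 h on the y axis. Pale points are the 25% of genes with the lowest mean signal, and red and blue points are the 12 named genes each with the highest and lowest difference shared by both times. The cloud shows no slope (r = 0.05), and Hp, Lep and Adipoq lie far out at the lower left.

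Several genes with lower signal encode secreted proteins. Adipoq encodes adiponectin, a hormone of fat cells. Its signal was 4637 in HF and 1941 in HF+SFC+ALA at 4 h, and 4280 and 796 at 24 h, with 901 and 577 in the Control pools. Both supplemented pools were thus below both HF pools, by 2.39-fold at 4 h and 5.38-fold at 24 h, and above the Control pool of the same time. The fit gave a log2 difference of -1.84 ± 0.21 (SE, limma, adjusted p = 0.0562). Hp encodes haptoglobin, which binds free hemoglobin and is made by liver and fat. Its signal was 2940 in HF and 783 in HF+SFC+ALA at 4 h, and 1921 and 115 at 24 h, beside 317 and 114 in the Control pools. At 24 h the supplemented and Control pools were level, and the log2 difference from HF was -2.99 ± 0.38 (limma, adjusted p = 0.0562), the largest in size of any gene tested.

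Lep encodes leptin, the hormone by which fat cells report their stores. It read 592 in HF and 195 in HF+SFC+ALA at 4 h, and 366 and 70.4 at 24 h. The Control pools read 45.8 at 4 h and the floor, 26.4, at 24 h, so the supplemented pools lay between Control and HF. The log2 difference of Lep was -1.99 ± 0.30 (limma, adjusted p = 0.0775). Rbp4, the retinol carrier of plasma, read 225 and 73.6 at 4 h and 292 and 71.9 at 24 h in HF and HF+SFC+ALA. Its supplemented pools stood at or under the Control pools (105 and 77.9), with a log2 difference of -1.82 ± 0.30 (limma, adjusted p = 0.127). Retn, which encodes the fat cell hormone resistin, had log2 differences of -0.53 at 4 h and -1.25 at 24 h, with an SE of 0.49 in the fit (limma, adjusted p = 0.970).

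**Figure D2:**
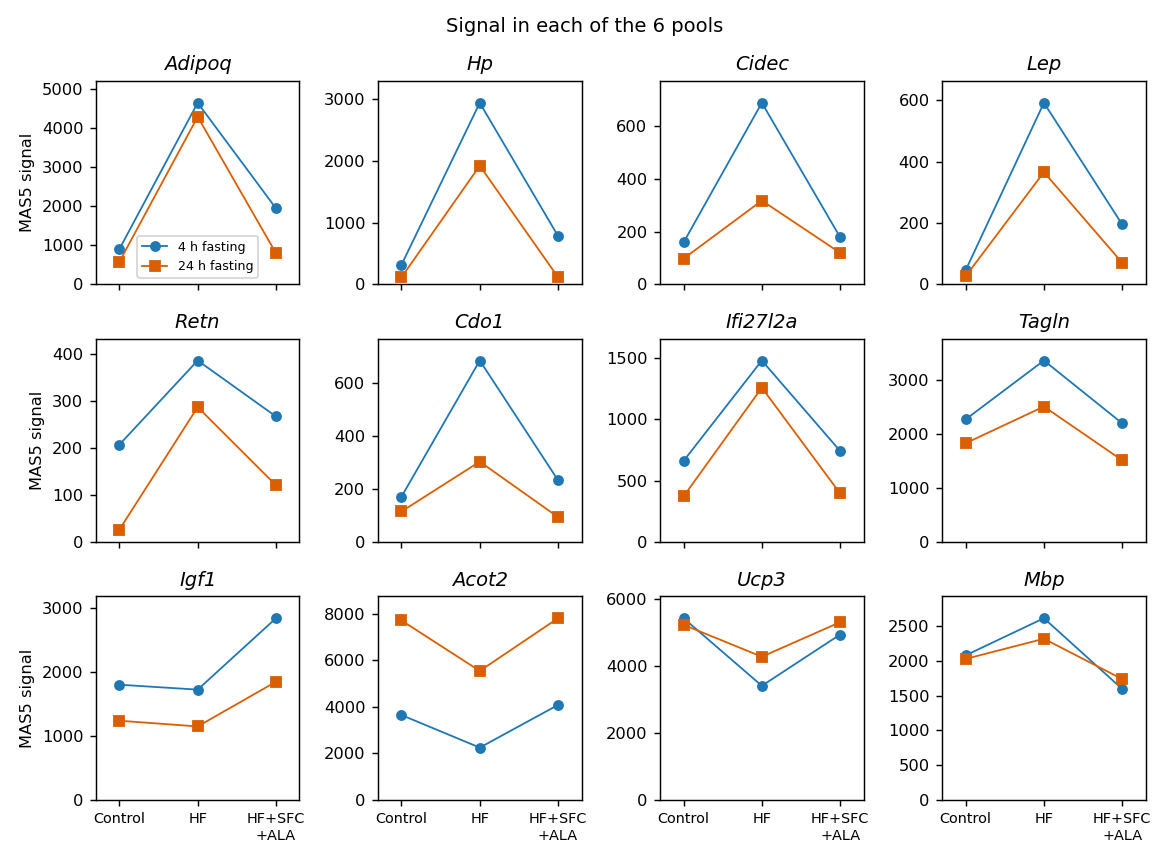
The MAS5 signal (linear y axis from 0, arbitrary units) of 12 genes is shown in each pool, with diets on the x axis and lines joining pools of one fasting time. Each point is 1 pool, so there are no error bars. For Adipoq, Hp, Cidec, Lep and Retn both HF pools stand above the other pools of their fasting time, and for Igf1 the supplemented pools stand above both other diets.

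Promoters are shown for the 4 genes with the largest differences among the named lowest genes that had a listed promoter. Hp, Cdo1, Wfdc21 and Tmem45b had none listed. Each sequence is the 250 bases before the transcription start, 5' to 3', from RefSeq on GRCm38.p6. Capitals mark matches to any of the motifs that were searched. They were the E-box CACGTG, the CRE TGACGTCA, an ATF4 core TGATGNAA, an antioxidant core TGACNNNGC, a FoxO motif GTAAACA, an ERR element TCAAGGTCA, a heat shock core GAANNTTC, the nuclear receptor half-site AGGTCA, a C/EBP core TTGNGNAA and the TATA box TATAAA. All were searched on both strands except the TATA box, and the last 3 were added after the values had been seen. The AGGTCA half-site lies within the ERR element. Lep is at chr6:29059971-29060220 on the plus strand, Adipoq at chr16:23146286-23146535 on the plus strand, Cidec at chr6:113435761-113436010 on the minus strand and Rbp4 at chr19:38125322-38125571 on the minus strand. For Cidec and Rbp4 this is the first of 2 listed starts.
Lep: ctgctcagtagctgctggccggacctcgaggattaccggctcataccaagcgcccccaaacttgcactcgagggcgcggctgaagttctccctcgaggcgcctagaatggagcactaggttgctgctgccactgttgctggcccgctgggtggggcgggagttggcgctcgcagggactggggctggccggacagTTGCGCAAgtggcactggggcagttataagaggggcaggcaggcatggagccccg
Rbp4: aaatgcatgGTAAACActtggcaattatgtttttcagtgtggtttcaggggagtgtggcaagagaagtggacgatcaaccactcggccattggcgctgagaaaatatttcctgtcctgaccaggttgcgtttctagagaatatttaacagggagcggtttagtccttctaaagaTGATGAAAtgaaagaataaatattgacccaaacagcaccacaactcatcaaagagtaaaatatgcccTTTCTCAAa
Adipoq: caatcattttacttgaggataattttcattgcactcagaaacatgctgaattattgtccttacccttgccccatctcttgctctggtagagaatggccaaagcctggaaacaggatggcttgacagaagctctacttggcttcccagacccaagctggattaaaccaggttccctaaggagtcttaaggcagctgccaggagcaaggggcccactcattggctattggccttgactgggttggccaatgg
Cidec: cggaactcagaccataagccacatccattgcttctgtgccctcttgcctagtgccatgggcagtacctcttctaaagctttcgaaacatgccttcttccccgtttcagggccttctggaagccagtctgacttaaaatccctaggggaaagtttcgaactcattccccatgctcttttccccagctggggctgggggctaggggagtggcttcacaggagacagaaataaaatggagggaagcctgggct
The Lep promoter holds 1 match, to the C/EBP core, and the Rbp4 promoter 3, to the C/EBP, ATF4 and FoxO motifs. No listed motif matched in these windows of Adipoq and Cidec. Among the 12 named lowest genes, 8 had promoters in the table, 10 in all, and 3 of these 10 held the C/EBP core, compared with 11.7% of all 32851 promoters. At first listed starts only Lep and Rbp4 held it, so the other match lies at the second start of Rbp4 or Cidec. Among the 12 named highest genes, 9 had promoters, 13 in all, and 1 held the C/EBP core. FoxO matches were in 4 of these 13 and in 3.17% of all promoters, and all 4 were overlapping promoters of Mir670hg. The E-box was in none of either group and in 6.02% of all. These matches describe letters only.

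Lipid droplet genes had no shared direction. Of 14 genes of lipid droplets and lipolysis, 3 were lower and 2 higher at both times, beside 26.7% and 24% of all genes. Another 8 were higher at 4 h and lower at 24 h, beside 26.1% of all genes. The medians of the list were 0.23 and -0.09. The member with the largest difference was Cidec, a protein that enlarges lipid droplets. It read 689 in HF and 179 in HF+SFC+ALA at 4 h, and 318 and 120 at 24 h. Its supplemented pools were close to the Control pools (159 and 97.5), and the log2 difference from HF was -1.68 ± 0.22 (limma, adjusted p = 0.0562). Cdo1, cysteine dioxygenase, which starts the breakdown of cysteine to taurine, read 685 and 233 at 4 h and 303 and 94.0 at 24 h. Both pairs thus differed about equally, at -1.55 and -1.69 on the log2 scale. Sncg, or gamma-synuclein, which is found in neurons and fat cells, read 601 and 266 at 4 h and 456 and 180 at 24 h (log2 difference -1.26 ± 0.20; limma, adjusted p = 0.111). Cebpa, a transcription factor of fat cell differentiation, differed by -0.34 and -0.94.

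Not every fat cell gene shared this pattern. Of 11 adipocyte markers tested, 8 were lower and 2 higher at both fasting times, while 26.7% of all genes were lower and 24% higher at both. The median difference of the markers was -0.34 at 4 h and -0.18 at 24 h, and none passed the test. Fabp4, the fatty acid binding protein of fat cells and capillaries, differed by -0.02 and -0.18, and by 0.01 over both times with its probe sets averaged. Pparg, the master regulator of fat cells, read 133 and 137 at 4 h and 80.8 and 164 at 24 h, higher in the supplemented pool at 24 h. The summed signal of the markers, most of it from Fabp4 and Lpl, was 71289 in HF and 75572 in HF+SFC+ALA at 4 h, and 89599 and 77916 at 24 h. None of the 11 was at the floor in a high-fat pool. In such bulk RNA, fewer cells of a type and less RNA per cell cannot be told apart.

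The remaining genes of the lowest 12 were dimmer or less familiar. Tmem45b, a membrane protein, read 871 and 376 at 4 h and 472 and 123 at 24 h (log2 difference -1.57 ± 0.24; limma, adjusted p = 0.0775). Wfdc21, of the whey acidic protein family, differed by -1.44 at both times. Six5, a homeobox factor, Aldh1a7, an aldehyde dehydrogenase, and the uncharacterised locus LOC102631979 had HF signals from 92.0 to 192 and log2 differences of -1.45 ± 0.43, -1.23 ± 0.32 and -1.23 ± 0.36. The 12th gene by its smaller pair differed by 1.16 in size and the next by 1.09, so the boundary of this group is a narrow one.

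**Figure D3:**
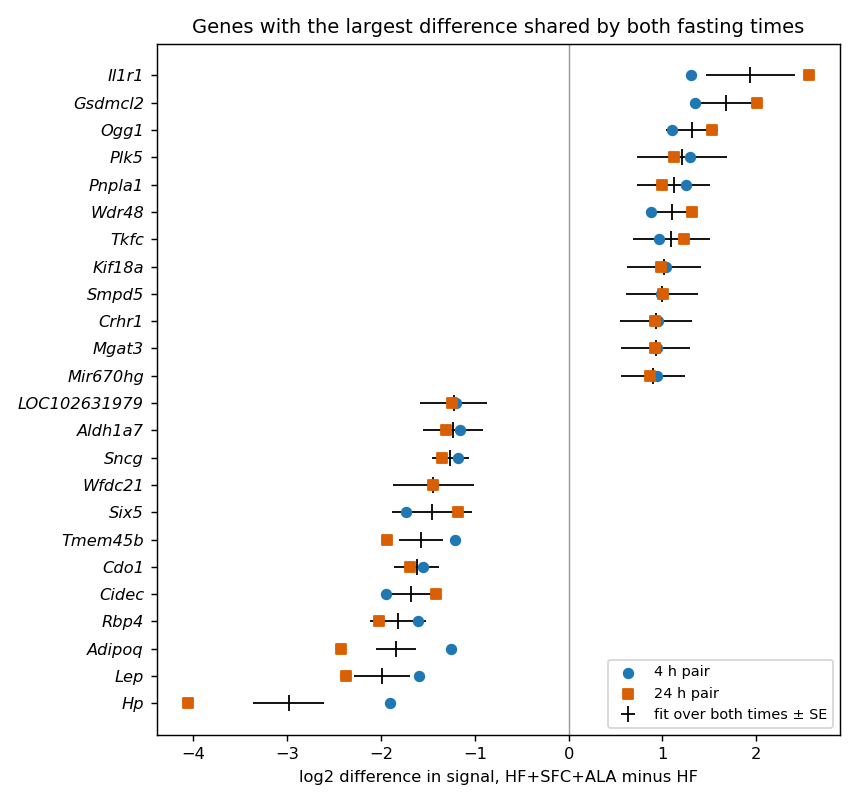
The x axis gives the log2 difference in signal, HF+SFC+ALA minus HF, for the 24 named genes listed on the y axis. Circles are the 4 h pair of pools, squares the 24 h pair, and black bars the limma estimate over both ± SE. Hp is the farthest from 0 at -4.06 in the 24 h pair, and the pairs of Wfdc21, Smpd5 and Mgat3 nearly coincide.

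Among brighter genes outside that group, 3 that were lower in both pairs were named after their values were seen. Ifi27l2a, an interferon-inducible gene, read 1476 and 740 at 4 h and 1255 and 395 at 24 h in HF and HF+SFC+ALA, and its log2 difference was -1.33 ± 0.17 (limma, adjusted p = 0.0562). Its supplemented pools were near the Control pools (659 and 371). Of the 18 other interferon-stimulated genes tested, however, 6 were lower and 2 higher at both times, beside 26.7% and 24% of all genes. The median of these 18 in the fit was -0.09. Tuba1a, an alpha-tubulin, read 6324 and 3975 at 4 h and 4614 and 3078 at 24 h, beside 3940 and 3055 in Control. Its log2 difference was -0.63 ± 0.08 (limma, adjusted p = 0.0562). Mybph, a thick filament protein of muscle, differed by -0.72 and -0.98.

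The 12 genes with the largest shared increase in signal were mostly faint. Apart from Wdr48, their HF pools read between 26.6 and 120, and the HF pools of Gsdmcl2 and Il1r1 at 24 h, at 26.6 and 27.0, were just above the floor of 26.4. Il1r1, the receptor of interleukin-1, read 120 and 298 at 4 h and 27.0 and 160 at 24 h (log2 difference 1.94 ± 0.48; limma, adjusted p = 0.498). Ogg1, which removes oxidised guanine from DNA, read 70.1 and 151 at 4 h and 73.8 and 213 at 24 h (1.32 ± 0.28; limma, adjusted p = 0.346). In both genes the supplemented pool was the higher one at each time, which the choice of these 12 genes required. The other probe set of Ogg1, however, gave 1.09 at 4 h and 0.08 at 24 h. Wdr48, a partner of deubiquitinating enzymes, read 286 and 527 at 4 h and 202 and 503 at 24 h (1.10 ± 0.16; limma, adjusted p = 0.0772), but its other probe sets gave 0.06 and -0.35 over both times. The others were Gsdmcl2 of the gasdermin family, the kinase gene Plk5, the lipase-like Pnpla1, the kinesin Kif18a, the sphingomyelinase Smpd5, the triokinase Tkfc, the glycosyltransferase Mgat3, the stress hormone receptor Crhr1 and the host RNA of a microRNA, Mir670hg. Their log2 differences ran from 0.90 to 1.68.

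Among well-measured genes with higher signal, Igf1 and Acot2 stood out. Igf1 encodes insulin-like growth factor 1, which muscle makes for its own growth and repair. It read 1720 in HF and 2837 in HF+SFC+ALA at 4 h, and 1145 and 1844 at 24 h, so both pairs differed by about the same amount, 1.65-fold and 1.61-fold. The Control pools (1797 and 1235) were near HF, and the log2 difference was 0.70 ± 0.09 (limma, adjusted p = 0.0562). Its 3 other probe sets, all dimmer, gave 0.73, 0.35 and 0.45 at 4 h but 0.14, 0.07 and -0.25 at 24 h, so the 24 h difference rests on 1 probe set. Of 16 myokines and growth factors tested, 2 were higher and 6 lower at both times, beside 24% and 26.7% of all genes.

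Of 23 fatty acid oxidation genes, 6 were higher at both times, a share close to that of all genes (24%), and none lower. Another 16 were higher at 4 h and lower at 24 h, beside 26.1% of all genes. The medians of the list were 0.22 at 4 h and -0.08 at 24 h, and none of its genes passed the test. Acot2 read 2241 and 4077 at 4 h and 5540 and 7807 at 24 h, and its supplemented pools were near the Control pools (3642 and 7711). The log2 difference was 0.68 ± 0.10 (limma, adjusted p = 0.0772), and a second probe set gave 0.75 and 0.58. Acot1, its cytosolic relative with a very similar sequence, differed by 1.09 and 0.55. Ucp3, the uncoupling protein of muscle mitochondria, read 3409 and 4942 at 4 h and 4279 and 5312 at 24 h (0.42 ± 0.10; limma, adjusted p = 0.449), with a second probe set at 0.52 and 0.39. Cd36, the fatty acid transporter, differed by 0.30 and -0.10, and Pdk4, the brake on glucose oxidation, by 0.36 and -0.04. Tecpr1, an autophagy gene (0.93 and 0.64), and Tmem100 (0.55 and 1.10) were also higher at both times and were named after their values were seen. Their other probe sets disagreed, at 0.06 and 0.12 for Tecpr1 and 0.82 and -0.03 for Tmem100.

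Genes that make fat were mostly lower. Of 18 lipogenesis and desaturation genes, 10 were lower and 2 higher at both times, beside 26.7% and 24% of all genes, with medians of -0.11 at 4 h and -0.19 at 24 h. Scd1, the main desaturase that makes oleate, read 6231 and 5426 at 4 h and 5205 and 2081 at 24 h. The pairs differed by -0.20 and -1.32, and the fit gave -0.76 ± 0.20 (limma, adjusted p = 0.593). A second, dimmer Scd1 probe set gave -0.50 and -0.45, so the gap between the times rests on 1 probe set. Dgat2, which completes triglyceride synthesis, differed by -0.26 and -0.42, and Srebf1, the transcription factor of lipogenesis, by -0.31 and -0.23. Fasn, the fatty acid synthase, differed by -0.57 and -0.09. Of the 11 fat cell markers above, 8 were lower and 2 higher at both times. Their summed signal was higher in the supplemented pool at 4 h and lower at 24 h. The part of fat cells in the lipogenic values was not tested.

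Transcripts of the heme pathway, which the supplement feeds, differed little. Alas1, the ALA synthase of most tissues, read 3784 in HF and 3524 in HF+SFC+ALA at 4 h, and 2779 and 2890 at 24 h. The pairs went opposite ways, and the log2 difference was -0.02 ± 0.09 (limma, adjusted p = 0.995), with the sign turned after median centring (0.05). A second, dimmer Alas1 probe set gave -0.99 and -0.39, so the gene's probe sets disagreed. Alad, which joins 2 molecules of ALA, differed by -0.15 and -0.32, but averaging its probe sets gave 0.28 over both times. Cpox, a later enzyme, differed by 0.13 and 0.43. The fit without the HF pool of 24 h gave -0.01 for Cpox, but it then takes part of the fasting effect from the Control pools. Fech, ferrochelatase, read 6810 and 7404 at 4 h and 7449 and 7155 at 24 h, a log2 difference of 0.03 ± 0.08. Of 12 heme synthesis genes tested, 4 were higher and 2 lower at both times, beside 24% and 26.7% of all genes. Tspo, a mitochondrial outer membrane protein that binds porphyrins, was the lowest of them at both times together, at -0.49 and -0.19.

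Heme breakdown genes gave the same picture apart from Hp. Hmox1, the inducible heme oxygenase, read 130 in both diets at 4 h, and 255 and 223 at 24 h (log2 difference -0.10 ± 0.21). Its constitutive relative Hmox2 differed by 0.03 and -0.08, which averaged above 0 after median centring, and Bach1, the heme-sensing repressor of Hmox1, by 0.09 and 0.15. Of 11 genes of heme breakdown and scavenging, 1 was higher and 3 lower at both times, beside 24% and 26.7% of all genes. The other lower genes were Cd163, the scavenger receptor for hemoglobin bound to haptoglobin, at -0.22 and -0.05, and Slc48a1, a heme transporter, at -0.06 and -0.07, a difference that turned to 0.01 after median centring.

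Iron genes were also close between the diets. Tfrc, the transferrin receptor, which is kept up when cells lack iron, read 10053 and 7826 at 4 h and 3192 and 3368 at 24 h. It was lower in the supplemented pool at 4 h only, and the log2 difference was -0.14 ± 0.11 (limma, adjusted p = 0.973), or 0.09 with its probe sets averaged. Fth1, the ferritin heavy chain, which stores iron, read 45958 and 46910 at 4 h and 48042 and 45382 at 24 h. The log2 difference was -0.03 ± 0.08, with the sign turned by quantile normalization and median centring. Slc40a1, the iron exporter ferroportin, differed by 0.16 and 0.27, and Slc39a14, a carrier that brings in iron and zinc, by 0.39 and 0.50, with a second probe set at 0.05 and 0.20. Steap3, a reductase of endosomal iron, differed by -0.49 and -0.21, but 1 of its 2 other probe sets gave 0.23 at 4 h. Of 18 iron genes tested, 4 were higher and 4 lower at both times, beside 24% and 26.7% of all genes. Of 18 iron-sulfur cluster genes, 4 were higher at both and none lower, with medians of 0.13 and -0.02.

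Heme proteins and the respiratory chain differed in opposite ways at the 2 fasting times. Mb, myoglobin, read 38734 and 41673 at 4 h and 44840 and 39281 at 24 h. Cycs, cytochrome c, differed by 0.04 and -0.02, and Cox4i1, a subunit of cytochrome c oxidase, by 0.11 and -0.23. Over both times Mb and Cox4i1 were slightly below 0, and slightly above it after median centring. Of 43 complex I genes, 36 were higher at 4 h and lower at 24 h, and so were 41 of 47 genes of complexes II to V, while 26.1% of all genes had this order. Their medians were 0.13 and -0.12 for complex I and 0.12 and -0.13 for the others, so the 2 pairs cancelled in the fit. TCA cycle genes (15 of 18) and muscle fibre markers (8 of 10) had the same order, so it was not particular to the respiratory chain. The muscle fibre markers had medians of 0.11 and -0.18. Cat, catalase, another heme enzyme, was an exception at 0.27 and 0.29 (0.28 ± 0.08; limma, adjusted p = 0.771).

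Regulators of mitochondrial number were higher at both times more often than not. Of 17 mitochondrial biogenesis genes, 9 were higher and 1 lower at both times, beside 24% and 26.7% of all genes. The medians of the list were 0.07 and 0.10. Sirt3, the main mitochondrial deacetylase, differed by 0.39 and 0.33, Esrra, the estrogen-related receptor alpha, by 0.30 and 0.08, and Tfam, which packs mitochondrial DNA, by 0.17 and 0.06. The 1 lower gene was Ppargc1a, the coactivator that drives this programme, which read 2515 and 2314 at 4 h and 1798 and 1239 at 24 h. Its 4 other probe sets were also lower at both times, by -0.19 to -0.35 in the fit. None passed the test. Without the HF pool of 24 h the fit gave 0.06 for Ppargc1a, but it then takes part of the fasting effect from the Control pools. The pair of pools left, at 4 h, differed by -0.12.

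Fibre type genes differed in opposite ways at the 2 fasting times. Myh7, the slow myosin heavy chain, read 6099 in HF and 9992 in HF+SFC+ALA at 4 h, but 10109 and 6716 at 24 h. The Control pools, 8784 and 7813, lay between the high-fat pools each time. Of 12 slow fibre genes, 11 were higher at 4 h and lower at 24 h, beside 26.1% of all genes. The medians of the list were 0.64 and -0.47. Tnni1 and Tnnc1, slow troponins, differed by 0.77 and 0.76 at 4 h and by -0.68 and -0.66 at 24 h. Fast fibre genes had the same order in 14 of 15, at medians of 0.11 and -0.20, and Myh4, the fast myosin heavy chain, differed by 0.09 and -0.22. Over both times Myh7 differed by 0.06 ± 0.23, so no shared difference in slow fibre genes was detectable with 2 pools a side. The HF pool of 4 h, lowest in Myh7, was also the one with the actin ratio of 1.52, though its Gapdh ratio of 0.83 was within the range of the other pools. The part of RNA quality in these values was not tested.

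**Figure D4:**
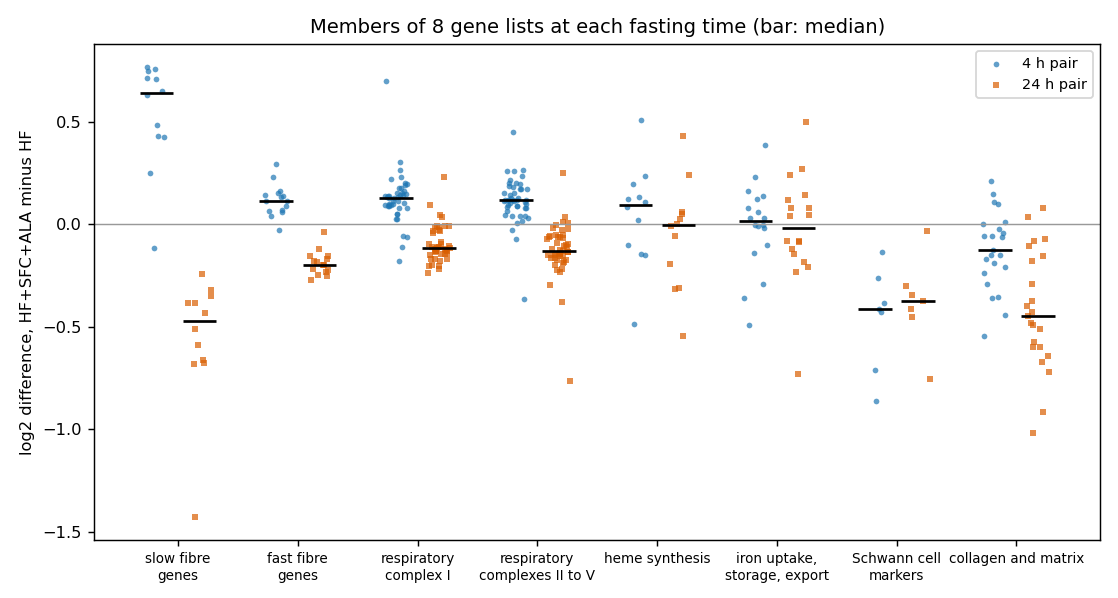
Points are the members of 8 gene lists, with the list on the x axis and the log2 difference in signal, HF+SFC+ALA minus HF, on the y axis. Circles are the 4 h pair, squares the 24 h pair, and black bars medians. Slow fibre and respiratory genes sit above 0 at 4 h and below 0 at 24 h, whereas all 7 Schwann cell markers lie below 0 at both times.

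Genes of nerve, vessel wall and matrix were lower at both times in much of their lists. Of 7 Schwann cell markers, genes of the cells that wrap nerve fibres, 7 were lower at both times, beside 26.7% of all genes. The medians of the list were -0.41 and -0.37. Mbp, myelin basic protein, read 2618 and 1598 at 4 h and 2322 and 1740 at 24 h (log2 difference -0.56 ± 0.10; limma, adjusted p = 0.158), and the supplemented pools were below Control too (2083 and 2031). Its 6 other probe sets were all lower at 4 h and 5 of them at 24 h. Pmp22, a myelin protein also made elsewhere, differed by -0.39 and -0.45. The summed signal of the 7 markers was 6580 and 6441 in the HF pools and 4609 and 4789 in the supplemented pools, with none at the floor.

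Of 11 smooth muscle and pericyte markers, 8 were lower at both times and none higher, beside 26.7% and 24% of all genes. The summed signal of these markers, however, was 66179 in HF and 68199 in HF+SFC+ALA at 4 h, and 70713 and 60817 at 24 h, with none at the floor. Des, which is part of this sum, is also among the muscle fibre markers, so the sum is not one of vessel wall cells alone. Tagln, or transgelin, an actin-binding protein of smooth muscle, read 3368 and 2202 at 4 h and 2514 and 1517 at 24 h (-0.67 ± 0.09; limma, adjusted p = 0.0772). Acta2, smooth muscle actin, differed by -0.40 and -0.47 and Cnn1, calponin, by -1.28 and -0.80. Endothelial markers did not share this: 2 of 12 were lower at both times and none higher. Of 5 satellite cell markers, 3 were lower at both times.

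Of 23 collagen and matrix genes, 17 were lower and 1 higher at both times, beside 26.7% and 24% of all genes. The medians of the list were -0.13 at 4 h and -0.45 at 24 h. Col1a1 and Col1a2, the chains of type I collagen, differed by -0.55 and -0.36 at 4 h and by -0.38 and -0.48 at 24 h. Col1a2 read 9557 and 7453 at 4 h and 8416 and 6027 at 24 h (-0.42 ± 0.08; limma, adjusted p = 0.213). Sparc, a collagen-binding matrix protein, differed by -0.36 and -0.51, but the mean of its probe sets, dim ones included, gave 0.06 over both times. Timp1, an inhibitor of matrix proteases, differed by -0.29 and -1.02. Among 11 fibroblast markers 5 were lower and 1 higher at both times. The summed fibroblast signal was 66775 and 67232 in the HF pools and 63098 and 56584 in the supplemented pools, and none was at the floor. The part of fibroblast content in the matrix values was not tested.

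Macrophage markers differed in sign between the times. At 24 h all 15 were lower, with a median of -0.48, and at 4 h 11 were higher, with a median of 0.13. Among all 11526 genes, 6087 were lower at 24 h and 5783 higher at 4 h. Csf1r, the receptor for macrophage colony-stimulating factor, differed by 0.10 and -0.50, and Tyrobp, a signalling adaptor, by 0.20 and -0.92. Adgre1, a macrophage surface receptor, differed by -0.17 and -0.33.

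**Figure D5:**
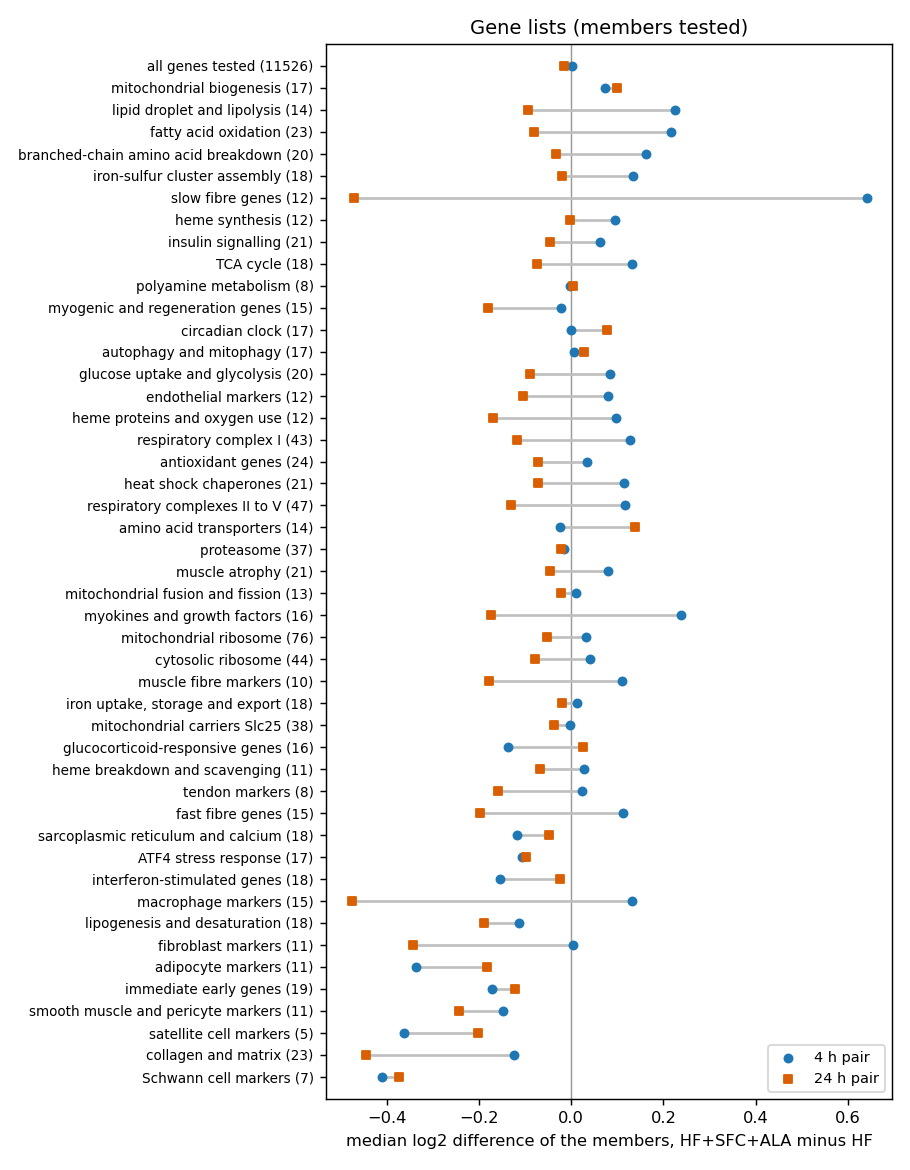
Each row is a gene list, with the number of members tested in brackets, and the x axis is the median log2 difference of its members, HF+SFC+ALA minus HF. Circles are the 4 h pair and squares the 24 h pair, joined by a line, and all genes tested stand at the top. The longest line is that of the slow fibre genes (0.64 and -0.47), and the Schwann cell markers have the lowest median at 4 h (-0.41) and over both times, while macrophage markers have the lowest at 24 h (-0.48).

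Genes of stress and of early response were lower in part. Of 19 immediate early genes, which respond within minutes to activity, stress or handling, 11 were lower and 4 higher at both times. Among all genes 26.7% were lower and 24% higher at both. The medians of the list were -0.17 and -0.12. Atf3 differed by -0.53 and -0.58, Fos by -0.54 and -0.32, and Dusp1, a phosphatase of MAP kinases, by -0.36 and -0.33. Myc went the other way at 0.39 and 0.76. Of 17 genes of the ATF4 stress response, 7 were lower and 2 higher at both times; Asns, asparagine synthetase, differed by -0.74 and -1.27. Fgf21, a hormone of this response, was at the floor in all 6 pools.

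Atrophy genes were divided. Of 21 tested, 5 were higher and 6 lower at both times, shares close to those of all genes (24% and 26.7%). Fbxo32, the ubiquitin ligase atrogin-1, read 8834 and 9899 at 4 h and 14183 and 18934 at 24 h (0.29 ± 0.09; limma, adjusted p = 0.751), and its supplemented pools lay between HF and Control (13711 and 25513). Trim63, or MuRF1, differed by -0.09 and 0.31, and Gadd45a, a growth arrest gene, by 0.39 and 0.34. The metallothioneins Mt1 and Mt2, which bind zinc and copper, were lower, Mt2 by -0.35 and -0.87 and Mt1 by -0.17 and -0.91. Cdkn1a, the cell cycle inhibitor p21, differed by -0.21 and -0.29.

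Genes of glucose use were near 0. Slc2a4, the insulin-responsive glucose transporter GLUT4, read 11298 and 10879 at 4 h and 10709 and 11301 at 24 h, a log2 difference of 0.01 ± 0.09. Of 21 insulin signalling genes, 7 were higher and 7 lower at both times, beside 24% and 26.7% of all genes. Of 20 glucose uptake and glycolysis genes, 4 were higher and 2 lower. Pfkfb3, which sets the pace of glycolysis, was the largest of these at 0.20 and 0.88 (0.54 ± 0.14; limma, adjusted p = 0.523), with a second probe set at 0.29 and 0.26.

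The supplemented pools can be set beside the HF and Control pools only with care, since HF minus Control and HF+SFC+ALA minus HF share the HF pools. A choice made at one fasting time and read at the other shares no array. The 174 genes that were at least 2-fold higher in HF than in Control at 4 h had a median HF+SFC+ALA minus HF difference of -0.23 at 24 h, and 112 of them were lower in the supplemented pool. All genes had a median of -0.01 at 24 h. In the reverse choice, the 287 genes at least 2-fold higher in HF than in Control at 24 h had a median of -0.03 at 4 h, with 151 lower, and all genes had 0.00. The shift was thus seen in one direction of choice and was near 0 in the other. Likewise, the 118 genes at least 2-fold lower in HF+SFC+ALA than in HF at 4 h had a median of -0.09 at 24 h, and the 132 chosen at 24 h had a median of -0.14 at 4 h. Most genes with a large difference in 1 pair of pools therefore did not carry it to the other pair.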

How the data were processed

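The deposited values are intensity values on a linear scale from MAS5, per the submitters' processing notes, which give no version or settings. The mean without the lowest and highest 2% was 500.004 on every array. Of 45101 probe sets, 64 were controls, 34945 had 1 gene symbol, 932 several and 9160 none listed. Each gene was represented by its brightest probe set on average. Signals under the 30th percentile (26.4) were raised to it before log2, and genes with a mean above the median probe set (5.88) were kept, 11526 in all. Of the 92 genes with a value at that floor, a fold against it is understated.

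Diet and fasting time were fitted as additive terms over 6 pools with limma 3.58.1 in R 4.3.3 (eBayes with an intensity trend, 2 residual and 7.27 prior degrees of freedom), contrast HF+SFC+ALA minus HF, Benjamini-Hochberg at 0.05. Each SE and p comes from that fit and therefore also uses the Control pools. Named genes are the 12 highest and 12 lowest, which for want of calls were taken by the smaller of the 2 pair differences with all high-fat pools above the floor, 24 of 27 fixed genes (Fgf21 was below the filter, and Gdf15 and Ftl1 had no probe set with that symbol alone), members of 49 gene lists, and their other probe sets above the filter. The members and lists were chosen with earlier results of these data known. Lists are described by counts and medians without a test. The fit was tested on simulated data. Promoters are from RefSeq, with Gsdmcl2, Smpd5, Mgat3, Hp, Cdo1, Wfdc21 and Tmem45b unmatched. Lists, promoters and plots were made with matplotlib 3.10.9, numpy 2.4.6 and pandas 2.3.3 in Python 3.11.15. Alternatives were scaling, filter, floor, pseudocount, probe set averaging, the trend, the pools fitted, the fasting term and leaving out each pool.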

Additional observations from a re-analysis of the deposited data

Results flagged for a closer look

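The slow fibre genes stood out because nearly all of them differed one way at 4 h and the other way at 24 h. Their median difference between HF+SFC+ALA and HF was 0.64 at 4 h and -0.47 at 24 h, on the log2 scale. Fast fibre genes (0.11 and -0.20) and muscle fibre markers (0.11 and -0.18) had the same order, with smaller medians. Myh7, the slow myosin heavy chain, differed by 0.71 at 4 h and by -0.59 at 24 h. With 1 pool a side at each time the difference between the times was not tested. The HF pool of 4 h also had the highest actin 3' to 5' ratio, 1.52, though its Gapdh ratio of 0.83 was within the range of the other pools. The part of RNA quality in these values was not tested.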

How the results depend on the processing

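The count of genes past an adjusted p of 0.05 was 0 with limma under quantile normalization, no filter, no floor, a pseudocount, averaged probe sets, no trend and no fasting term. It was 18 after median centring, 6 with a filter at the 65th percentile and 114 with the 4 high-fat pools only. Leaving out 1 pool at a time gave 0 to 115 calls: 102 without the Control pool of 4 h and 115 without that of 24 h, when the other Control pool adds nothing to the residual, 3 without HF at 4 h, 2 without HF+SFC+ALA at 4 h, and 0 without either high-fat pool of 24 h. The 2 called without either 4 h pool were Hp and Adipoq, and Ifi27l2a was the other without HF at 4 h. Genes that differed at least 1.5-fold in one direction at 4 h and 24 h numbered 425 without a filter, 25 with the 65th percentile filter and 65 with a pseudocount, against 114; the other settings, leaving out a Control pool included, gave 98 to 118, and this count needs all 4 high-fat pools. No sign turned among the 348 values of the 24 highest and lowest genes. These genes were picked for a large difference of the same sign in both pairs, which makes a turned sign unlikely. Some of them had no value in settings where they fell under the filter. Of 2162 values of all named genes, 77 had the other sign, none of them a called value. Median centring added 0.07 to the median of all genes. The fasting term pairs the pools by fasting time. Array number limits the precision, and most genes 1.5-fold apart were among the 25% with the lowest signal.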
